A study of Mus musculus with 6 samples.

Results

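The genes described here are 37 genes of DNA replication and S phase, chosen by symbol from the 54532 genes of the deposited table, and all 37 were found and had a mean of at least 1 FPKM (fragments per kilobase of transcript, scaled to a size set for each library) over the 6 libraries. They were measured by bulk RNA-seq in mouse cells labelled as primary fibroblasts of the lung, which lay down its connective tissue. The 6 libraries form 2 groups of 3: NC, a control whose abbreviation the labels do not spell out, and KD, a knockdown of calumenin, a calcium-binding protein of the secretory pathway. The sample descriptions call the same libraries WT and KO, and the sources used here give no strain, age or sex of the animals, knockdown agent or culture time. The stated aim of the series was to relate calumenin to senescence and fibrosis signalling, and arrest of the cell cycle is a defining feature of senescence.

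A cell copies its genome once per cycle. In G1 the origin recognition complex, Cdc6 and Cdt1 load the ring-shaped Mcm2-7 helicase onto DNA, and at the start of S phase the kinase Cdc7 with Dbf4 and the cyclin-dependent kinases turn it into an active helicase by adding Cdc45 and the GINS complex. DNA polymerase alpha with primase then starts each strand, the sliding clamp Pcna holds the main polymerases on DNA, and Fen1 and Lig1 join the lagging-strand pieces. E2F transcription factors switch on most of these genes together at the G1/S boundary, so their RNA is used as a readout of how many cells of a culture are cycling. In bulk RNA a smaller share of cells in S phase and less RNA per cell cannot be told apart.

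The libraries held 15907164 to 18312888 recovered reads. The level of Calu, the targeted gene, went the way the labels state, from 224 ± 3.43 FPKM in the controls to 13.4 ± 1.07 FPKM after knockdown (SD over 3 libraries). Of 10 fibroblast markers 7 had at least 1 FPKM, with a summed level of 1367 to 1422 FPKM in NC and 1628 to 1662 FPKM in KD. Of these 7, 3 were called higher and 2 lower: Col1a1 went from 149 to 284 FPKM, Fn1 from 173 to 295 and Pdgfra from 7.05 to 11.2, while Col3a1 went from 24.6 to 10.9 and Pdgfrb from 36.9 to 30.3. Lum was listed at 0 in all 6 libraries and Dcn and Thy1 were below 1 FPKM. The 8 epithelial markers summed to at most 0.917 FPKM in any library, with Sftpc and Nkx2-1 at 0, and the 5 endothelial markers to at most 0.188 FPKM. The 7 leukocyte markers summed to 4.74 to 5.66 FPKM in NC and 3.22 to 4.98 FPKM in KD, with Adgre1 at 0. Of 3 mesothelial markers only Msln was at or above 1 FPKM (14.2 FPKM in NC and 12.4 in KD). Upk3b and Wt1 had means of 0.035 and 0.0016 FPKM over all libraries. Of 4 mural (smooth muscle and pericyte) markers Cspg4 (50.3 and 49.3) and Des (6.67 and 5.69) were above 1 FPKM. Myh11 and Acta2 had means of 0.0013 and 0.051 FPKM. KD1 stood apart from KD2 and KD3: a chi-square of recovered reads, divided by its degrees of freedom, was 17.5 and 29.1 for its pairs, against 4.47 for KD2 with KD3 and 2.31 to 3.19 for NC pairs. KD1 also had the highest mitochondrial share of reads, 2.56% against 1.60% to 1.97%. Each result is therefore given with KD1 and, where leaving it out changed a member's call, without it. Whether the replicates are separate cultures is not in the labels, and the p-values reflect only how far these samples differ, and that may be technical.

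After calumenin knockdown the replication genes lay near their control level, with small differences in both directions. The 37 members ranged from Rrm2 at 281 FPKM to Fen1 at 1.44 FPKM in the mean of all libraries. With all 6 libraries every member differed by less than 0.5 on the log2(FPKM + 1) scale, as did 10846 of the 12299 genes tested. Fen1, at 0.49, was at 0.67 without KD1 and at 0.87 by voom on recovered reads. The median difference of the members, KD minus NC, was 0.04, beside 0.01 over all genes tested. By limma on that scale, with Benjamini-Hochberg adjustment over the 12299 genes that reached that mean level, 1 member rose (Uhrf1) and 7 fell (Mcm2, Mcm3, Mcm4, Cdc45, Prim1, Dut and Chaf1b) at an adjusted p under 0.05. That is 21.6% of the members, and 24.5% of all genes tested were called, 10.9% higher and 13.6% lower, so the share called was near the background. All 3 KD values lay below all 3 NC values for 9 members and above them for 7, against 22.9% and 21.3% of all genes tested. Without KD1 the same test called 10 members higher and 11 lower, at a background of 20.9% higher and 21.6% lower. Without NC1 or NC3 it called none, although 5 libraries remained, without NC2 or KD2 only Cdc45, and without KD3 Mcm2, Mcm3, Cdc45 and Dut. The share of all genes called was not worked out for these fits, so their counts are not read as particular to the members. A replicate block gave 1 higher (Uhrf1) and 2 lower (Mcm2 and Mcm3) at a background of 8.54% and 11.2%, and voom on recovered reads 3 and 6 at 14.9% and 13.2%. With all 6 libraries 14 of the 37 members had an unadjusted limma p under 0.05, beside 4762 of the 12299 genes tested.

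**Figure D1:**
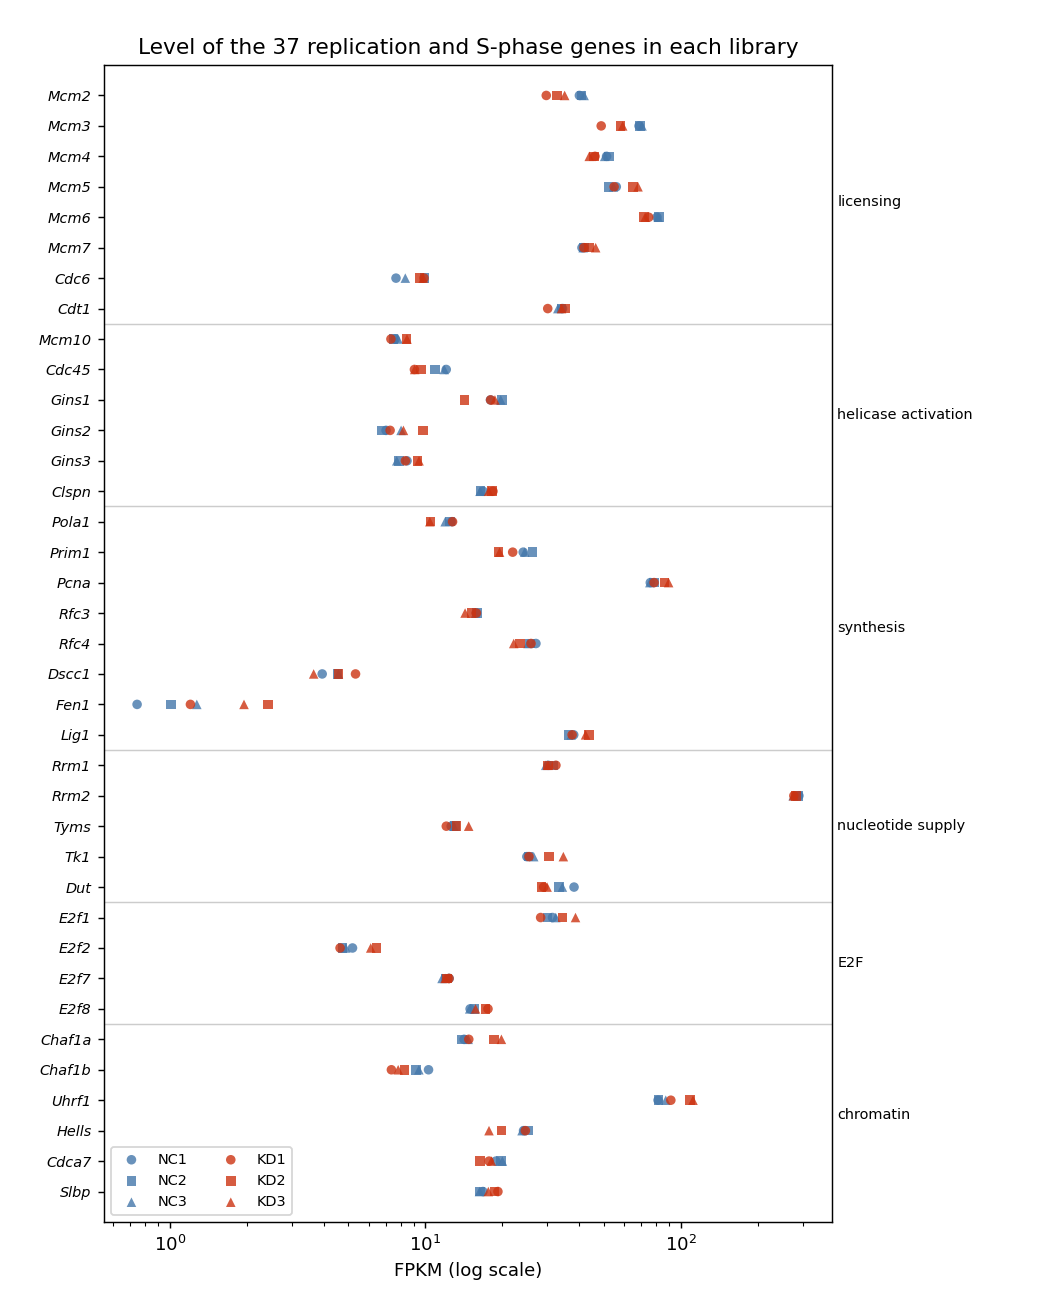
Level of each of the 37 genes in every library in FPKM (log axis), grouped by role. Blue symbols are NC1 to NC3 and red symbols KD1 to KD3, and circles, squares and triangles stand for replicates 1, 2 and 3. NC and KD values lie close together for nearly every gene beside the range of levels, from Rrm2 at 281 FPKM to Fen1 at 1.44 FPKM in the mean, and 21 of the 37 genes have overlapping groups.

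Licensing genes gave 3 of the 7 falls, all in subunits of the Mcm2-7 helicase. This ring contains each of its 6 subunits once, yet their RNAs did not move alike. Mcm2 (ENSMUSG00000002870, minus strand of chromosome 6 at 88883474 to 88898780, mm10) had 40.1, 40.9 and 41.8 FPKM in NC1 to NC3 and 29.7, 32.8 and 35.1 FPKM in KD1 to KD3. Mcm3 had 68.6, 69.3 and 70.4 FPKM in NC and 48.8, 57.9 and 59.2 FPKM in KD. In both genes the groups did not overlap and KD1 was the lowest library. Mcm2 fell by 0.33 on the log2(FPKM + 1) scale (SE 0.07, limma adjusted p = 0.0186) and Mcm3 (chromosome 1, 20802968 to 20820312) fell by 0.33 (SE 0.08, adjusted p = 0.0288). Mcm4 fell from 51.3 ± 1.04 to 45.2 ± 1.26 FPKM (SD, n = 3), by 0.18 on that scale (adjusted p = 0.0451). Mcm6, at 81.4 ± 0.74 FPKM in NC and 73.0 ± 1.62 in KD, had a difference of -0.15 that missed the threshold (adjusted p = 0.0581) although its groups did not overlap, and without KD1 it was called lower (-0.17, limma adjusted p = 0.00893).

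The remaining pair of helicase subunits did not fall. Mcm5 had 55.9, 52.1 and 54.4 FPKM in NC and 54.8, 65.1 and 67.9 FPKM in KD, so KD1 lay among the NC libraries while KD2 and KD3 lay above them. Its difference was 0.20 with all libraries (95% interval -0.01 to 0.41, limma adjusted p = 0.145), and without KD1 it was called higher (adjusted p = 0.00465). Mcm7 had 41.4 ± 0.34 FPKM in NC and 43.96 ± 2.33 in KD (difference 0.08, interval -0.05 to 0.22). The loading factors Cdc6 and Cdt1 had differences of 0.16 (-0.06 to 0.38) and -0.03 (-0.20 to 0.13), and their groups overlapped.

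Ratios between subunits within a library do not depend on how libraries were scaled to each other. The Mcm3 to Mcm5 ratio of FPKM was 1.23, 1.33 and 1.29 in NC1 to NC3 and 0.890, 0.890 and 0.871 in KD1 to KD3. Here KD1 fell with the other KD libraries, and the ratio dropped by 0.54 on the log2 scale. The Mcm2 to Mcm5 ratio went from 0.757 ± 0.04 to 0.521 ± 0.02, also by -0.54. Mcm2 to Mcm3 kept 0.589 in both groups, and Mcm4 to Mcm6 was 0.630 ± 0.01 in NC and 0.620 ± 0.02 in KD. Over all 15 subunit pairs the absolute log2 change ran from 0.00 to 0.54, and the pairs named here were picked after their values were seen. An exact two-sided permutation test gave p = 0.1 for Mcm3 to Mcm5 and for Mcm2 to Mcm5, the smallest value that 3 against 3 libraries allow, and 1 for Mcm2 to Mcm3. Mcm2 and Mcm3 lie on chromosomes whose genes as a whole were lower in KD and Mcm5 on one whose genes were higher (given further on), and with chromosome medians removed the change was -0.20 for Mcm3 to Mcm5 and -0.14 for Mcm2 to Mcm5.

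**Figure D2:**
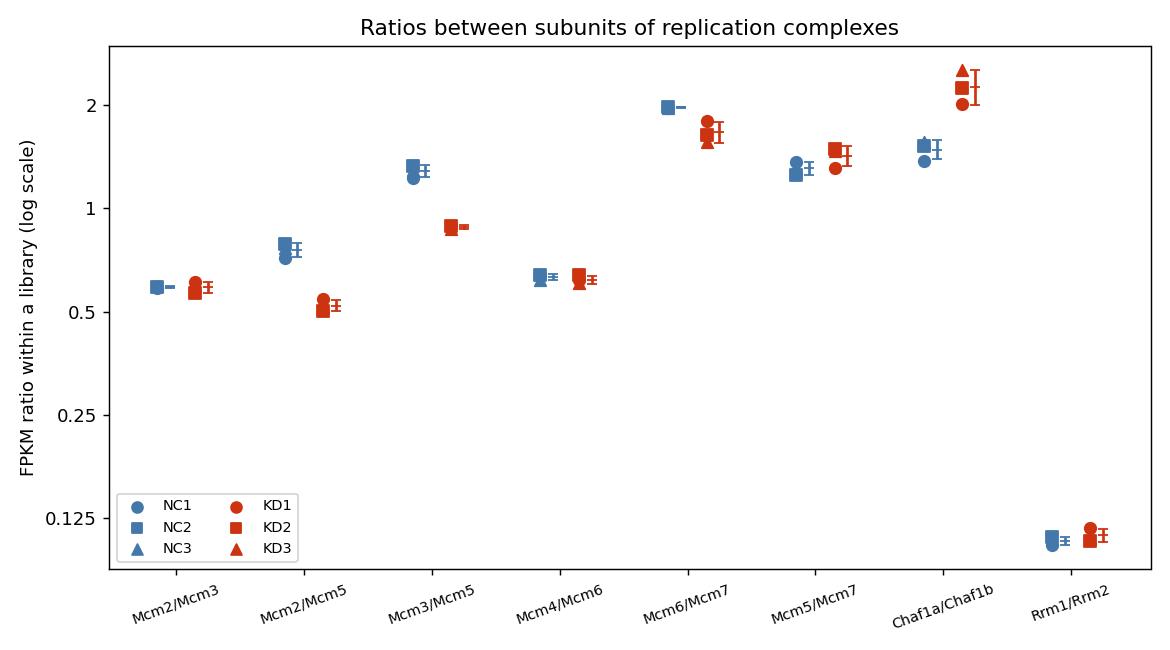
Ratio of FPKM between subunits of the same complex in each library (log axis), with NC in blue and KD in red, a symbol per library, and the group mean with its SD beside the points. Mcm2/Mcm5 and Mcm3/Mcm5 are lower in all 3 KD libraries and Chaf1a/Chaf1b is higher, while Mcm2/Mcm3, Mcm4/Mcm6 and Rrm1/Rrm2 overlap between groups.

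The promoters of these subunits differ in E2F-type sites, and 4 are shown, picked after the values above were seen. RefSeq promoter windows on GRCm38.p6, from 250 bases before to 50 after the annotated start, were found for 33 of the 37 members. They were searched on both strands for TTTCCCGC, TTTGGCGC, TTTCGCGC and TTTGCCGC, which can overlap each other. Of the 33 genes 16 (48.5%) held at least 1 match, against 2.6% of the 27025 genes in the table and 28.6% of 63 other replication genes. A gene with more than 1 window counted if any of its windows held a match. Of the 6 members with a window that fell, only Mcm3 held a match, while 9 of 19 with a difference above 0 and 7 of 14 with one below 0 did. Windows follow the RefSeq start, which for Dut, Cdc6, E2f1 and Mcm7 lay 325, 350, 466 and 539 bases from the deposited start (for Mcm7, the nearer of 2 windows). These windows lie inside the gene, so they did not cover the sequence before its deposited start. A CCAAT box was present in 63.6% of members and 41.1% of all genes, and TTTGAA, the core of the cell-cycle homology region of mitotic promoters, in 18.2% and 20.2%, also on both strands. A match describes these letters and is no evidence of binding. The sequences below run 5′ to 3′ in the direction of the gene, with E2F-type matches in capitals, and positions count from 0 at the RefSeq start.
Mcm2 promoter, chr6:88898731-88899030, minus strand, no match: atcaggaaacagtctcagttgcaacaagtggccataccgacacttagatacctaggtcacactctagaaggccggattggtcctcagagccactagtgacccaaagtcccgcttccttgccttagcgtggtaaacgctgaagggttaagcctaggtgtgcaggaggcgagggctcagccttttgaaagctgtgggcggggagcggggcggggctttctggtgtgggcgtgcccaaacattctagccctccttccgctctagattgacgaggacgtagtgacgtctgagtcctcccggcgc
Mcm3 promoter, chr1:20820263-20820562, minus strand, matches at 19 and 38: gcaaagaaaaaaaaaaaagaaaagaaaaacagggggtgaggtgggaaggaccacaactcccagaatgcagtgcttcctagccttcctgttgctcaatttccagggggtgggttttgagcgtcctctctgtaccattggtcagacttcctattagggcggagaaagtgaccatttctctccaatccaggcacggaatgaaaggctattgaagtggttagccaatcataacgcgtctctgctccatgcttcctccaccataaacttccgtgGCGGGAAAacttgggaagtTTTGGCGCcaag
Mcm5 promoter, chr8:75109259-75109558, plus strand, overlapping matches at -153 and -149: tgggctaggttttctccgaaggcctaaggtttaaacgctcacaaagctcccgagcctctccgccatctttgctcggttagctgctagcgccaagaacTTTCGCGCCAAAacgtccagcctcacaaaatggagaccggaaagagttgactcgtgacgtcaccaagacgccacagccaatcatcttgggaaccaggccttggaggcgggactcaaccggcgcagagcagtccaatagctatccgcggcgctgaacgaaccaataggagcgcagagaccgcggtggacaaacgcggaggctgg
Mcm6 promoter, chr1:128359656-128359955, minus strand, 3 matches, the first at -110 and the last at -47: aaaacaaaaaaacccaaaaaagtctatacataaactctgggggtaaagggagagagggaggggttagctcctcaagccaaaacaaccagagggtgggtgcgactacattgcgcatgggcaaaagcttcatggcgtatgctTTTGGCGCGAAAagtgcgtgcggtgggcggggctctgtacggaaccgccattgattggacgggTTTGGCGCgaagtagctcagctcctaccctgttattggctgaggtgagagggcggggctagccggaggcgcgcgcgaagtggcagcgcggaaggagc
Mcm3 and Mcm6 carry matches and Mcm2 does not, and all 3 had KD values below NC. Mcm5 carries overlapping matches and was not lower. Mcm7, not shown, holds 2 matches in its window, which lies inside the gene, and was not lower either.

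Among the factors that activate the helicase, only Cdc45 passed the test. Cdc45, which joins Mcm2-7 and GINS in the active helicase, had 12.1, 10.9 and 11.9 FPKM in NC and 9.06, 9.63 and 9.09 FPKM in KD. All KD libraries, KD1 included, lay at one level below all NC libraries, and the difference was -0.30 on the log2(FPKM + 1) scale (SE 0.06, limma adjusted p = 0.0159; chromosome 16, 18780447 to 18811987, minus strand). It kept its call under 19 of 22 alternative settings, more than any of the other 7 called members, and lost it without NC1, without NC3 and, narrowly, with a replicate block (adjusted p = 0.0502). Median-of-ratios scaling, counted among the 22 here and below, had the same factor for every library and could not change a call. The GINS subunits that Cdc45 binds did not pass. Gins1 had a difference of -0.18 (interval -0.43 to 0.08), Gins2 of 0.18 (-0.09 to 0.45) and Gins3 of 0.15 (-0.01 to 0.32). Without KD1 Gins3 was called higher (0.20, limma adjusted p = 0.0295). The fourth GINS subunit, Gins4, is not among the members and had 32.4 FPKM in NC and 35.1 in KD (difference 0.11, adjusted p = 0.236). Mcm10, which helps open the helicase, and the checkpoint mediator Clspn had differences of 0.07 and 0.12 (adjusted p = 0.517 and 0.122).

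Of the 8 genes of DNA synthesis Prim1 fell and none rose. Prim1, the catalytic subunit of primase, had 24.2, 26.3 and 24.5 FPKM in NC and 22.0, 19.4 and 19.5 FPKM in KD. The groups did not overlap, KD1 was the KD library nearest to NC, and the difference was -0.29 (SE 0.07, limma adjusted p = 0.0267; chromosome 10, 128015168 to 128030037). Its partner subunit Prim2, from the list of other replication genes, fell from 5.23 ± 0.30 to 3.69 ± 0.28 FPKM (difference -0.41, adjusted p = 0.0108). The polymerase alpha subunits did not pass: Pola1 differed by -0.14 (adjusted p = 0.296) and Pola2 by 0.24 (adjusted p = 0.111). Without KD1, Pola1 was lower (adjusted p = 0.0111) and Pola2 higher (adjusted p = 0.017). The clamp gene Pcna had 75.9, 78.5 and 75.6 FPKM in NC and 78.5, 86.3 and 89.5 FPKM in KD. Its highest NC library and KD1 both stood at 78.5, and the difference of 0.14 (interval -0.01 to 0.29) was called only without KD1 (adjusted p = 0.0102), with quantile scaling, with array weights, after a trend in GC and length was taken out, and with chromosome medians removed when KD1 was also left out. The clamp loader subunits Rfc3 and Rfc4, the alternative loader subunit Dscc1 and the ligase Lig1 had differences of -0.06, -0.12, 0.04 and 0.14, none of which passed with all 6 libraries. Without KD1 Rfc4 was called lower (limma adjusted p = 0.0318) and Lig1 higher (adjusted p = 0.00941). Fen1, the flap endonuclease, had the widest interval, 0.49 (0.04 to 0.95), on only 29 to 97 reads per library: 0.745, 1.01 and 1.28 FPKM in NC and 1.21, 2.42 and 1.95 FPKM in KD. It did not pass with all libraries (limma adjusted p = 0.106) and was called higher without KD1 (0.67, adjusted p = 0.0179).

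For nucleotide supply, the enzyme that destroys dUTP fell, and the 4 that make deoxynucleotides did not pass the test. Dut, which keeps uracil out of DNA, had 38.2, 33.3 and 34.4 FPKM in NC and 29.0, 28.5 and 30.0 FPKM in KD. The KD libraries were tight and all below NC, with a difference of -0.26 (SE 0.07, limma adjusted p = 0.0298; chromosome 2, 125247190 to 125258608). Rrm2, the S-phase subunit of ribonucleotide reductase and the most abundant member, had 284 ± 7.94 FPKM in NC and 278 ± 3.09 in KD. Its difference was -0.03 (interval -0.15 to 0.09), on 12073 to 14178 reads per library. The large subunit Rrm1 had 30.5 ± 1.049 and 31.0 ± 1.27 FPKM, and Tyms, which makes thymidylate, 12.9 ± 0.22 and 13.4 ± 1.35 FPKM. Thymidine kinase Tk1 had 24.96, 25.3 and 26.5 FPKM in NC and 25.4, 30.5 and 34.7 FPKM in KD, again with KD1 among the NC values, and was called only without KD1 (with or without chromosome medians removed) and with array weights (difference 0.22 with all 6 libraries, adjusted p = 0.189, and 0.33 without KD1, adjusted p = 0.01002).

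None of the 4 E2F genes passed the test, and all 4 estimates lay between 0.02 and 0.17. E2f1, an activator of the G1/S program, had 31.4, 30.0 and 32.4 FPKM in NC and 28.3, 34.4 and 38.7 FPKM in KD. E2f2 had 5.19, 4.74 and 4.89 FPKM in NC and 4.64, 6.43 and 6.12 FPKM in KD. In both activators KD1 was below every NC library while KD2 and KD3 were above, so the sign of the change differed within the KD group. Without KD1 they were called higher (limma adjusted p = 0.0376 for E2f1 and 0.012 for E2f2). The atypical repressors E2f7 and E2f8, which shut the program down later in S phase, had 12.0 ± 0.39 against 12.2 ± 0.21 FPKM and 15.2 ± 0.38 against 16.8 ± 0.99 FPKM (difference 0.14 for E2f8, adjusted p = 0.145).

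The chromatin group held the only rise and a split between partners. Uhrf1, which brings the maintenance methyltransferase Dnmt1 to newly copied DNA, had 81.4, 81.8 and 87.2 FPKM in NC and 91.3, 109 and 111 FPKM in KD. All KD libraries were above all NC libraries, with KD1 the nearest to them, and the rise was 0.31 (SE 0.09, limma adjusted p = 0.0437; chromosome 17, 56303321 to 56323486). Of the settings that left out a library, it was called only without KD1, and leaving out any other gave an adjusted p of up to 0.143. Chaf1a and Chaf1b encode the large and middle subunits of CAF-1, which places histones on new DNA. Chaf1b fell from 9.65 ± 0.57 to 7.83 ± 0.46 FPKM (difference -0.27, SE 0.07, adjusted p = 0.0331). Chaf1a had 14.2, 13.9 and 14.7 FPKM in NC and 14.8, 18.6 and 19.8 FPKM in KD (difference 0.28, adjusted p = 0.0983), and without KD1 it was called higher (0.40, adjusted p = 0.00214). The Chaf1a to Chaf1b ratio was 1.38, 1.51 and 1.56 in NC and 2.01, 2.24 and 2.53 in KD, a rise of 0.60 on the log2 scale without overlap (exact two-sided permutation p = 0.1, the smallest possible). With chromosome medians removed it was 0.32. Hells, a remodeller for DNA methylation, had 24.2, 25.2 and 23.9 FPKM in NC and 24.6, 19.8 and 17.7 FPKM in KD, with KD1 at the NC level (difference -0.24, adjusted p = 0.172, and 0.00518 without KD1). Its cofactor Cdca7 and the histone mRNA binding protein gene Slbp had non-overlapping groups but missed the threshold, with differences of -0.16 and 0.16 (adjusted p = 0.103 and 0.0875).

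**Figure D3:**
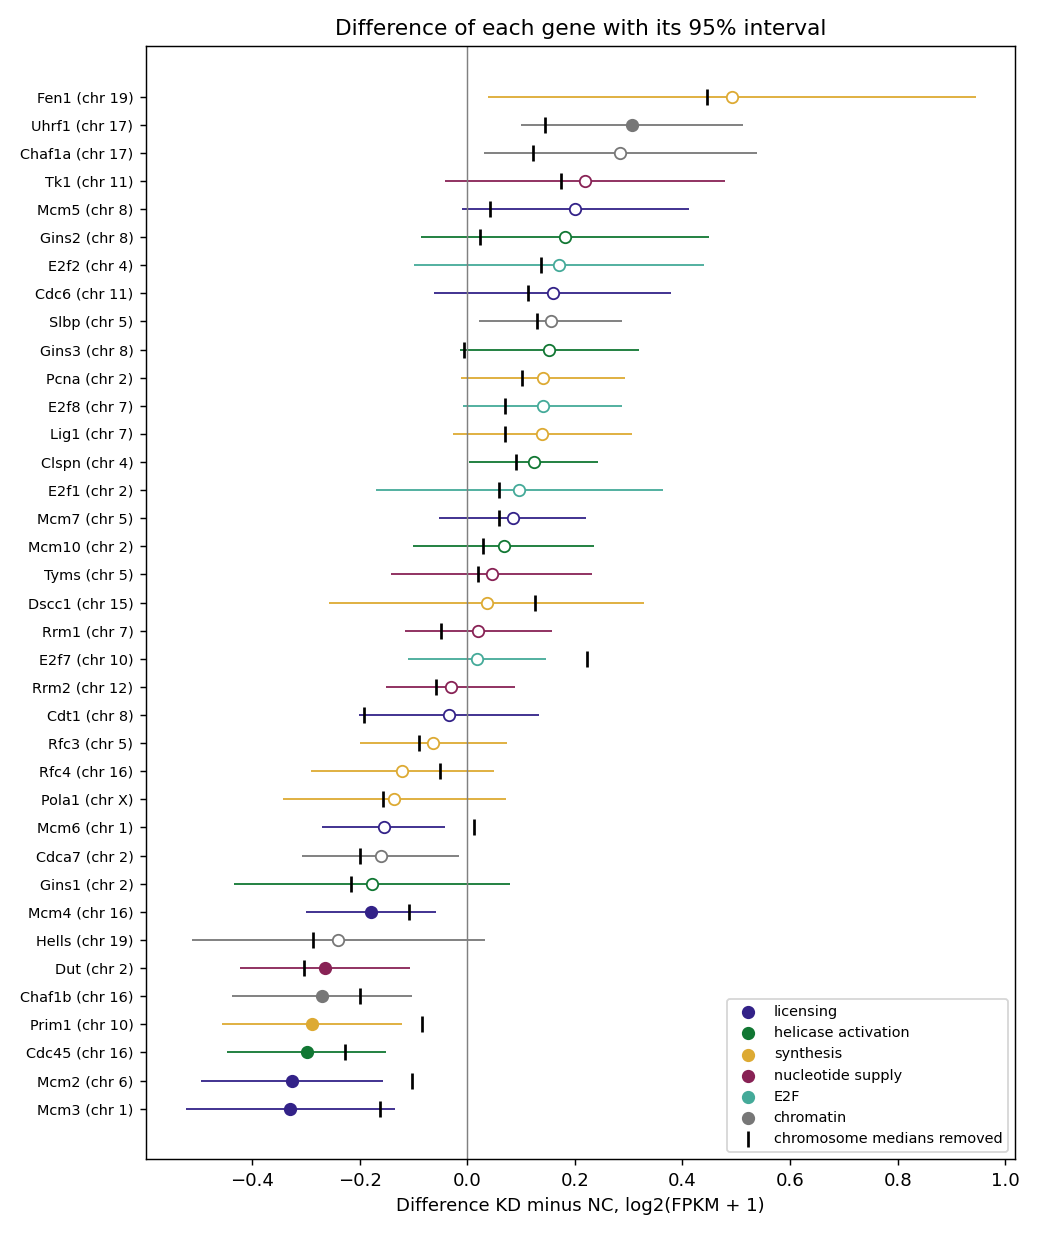
Difference of each member, KD minus NC, on the log2(FPKM + 1) scale with its 95% interval from limma, coloured by role. Filled circles passed an adjusted p of 0.05, open circles did not, and black ticks give the difference with chromosome medians removed; the 7 falls sit between -0.33 and -0.18 and Uhrf1 at 0.31.

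Part of the order of the members followed the chromosome they lie on. Over all genes tested, median differences by chromosome ran from -0.22 on chromosome 6 to 0.17 on chromosome 8. Mcm2 lies on chromosome 6, Mcm3 and Mcm6 on chromosome 1 (median -0.15) and Prim1 on chromosome 10 (-0.19). On chromosome 16 (-0.05) all 4 members, Mcm4, Cdc45, Rfc4 and Chaf1b, had differences below 0. Uhrf1 and Chaf1a lie on chromosome 17 (0.17), and Mcm5, Gins2, Gins3 and Cdt1 on chromosome 8. Across the 37 members the difference and the median of its chromosome had a Spearman rho of 0.69 and a Pearson r of 0.64, a description only, since members of 1 chromosome share their median and all points share the same 6 libraries.

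With each chromosome's median removed, the members called were 2 lower, Cdc45 (-0.23, limma adjusted p = 0.0451) and Dut (-0.30, adjusted p = 0.0218), and 1 higher, E2f7 (0.22, adjusted p = 0.0298), at a background of 10.9% lower and 9.62% higher. The differences of Mcm2, Mcm3, Mcm4, Prim1 and Chaf1b shrank to -0.10, -0.16, -0.11, -0.08 and -0.20 and that of Uhrf1 to 0.14, and none passed. Mcm6 moved from -0.15 to 0.01. With KD1 left out as well, 7 members were higher (Pcna, Fen1, Tk1, E2f2, E2f7, Chaf1a and Uhrf1) and 6 lower (Cdt1, Cdc45, Pola1, Dut, Hells and Cdca7), at a background of 18.4% and 19.9%. Why chromosomes differed as a whole was not tested.

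**Figure D4:**
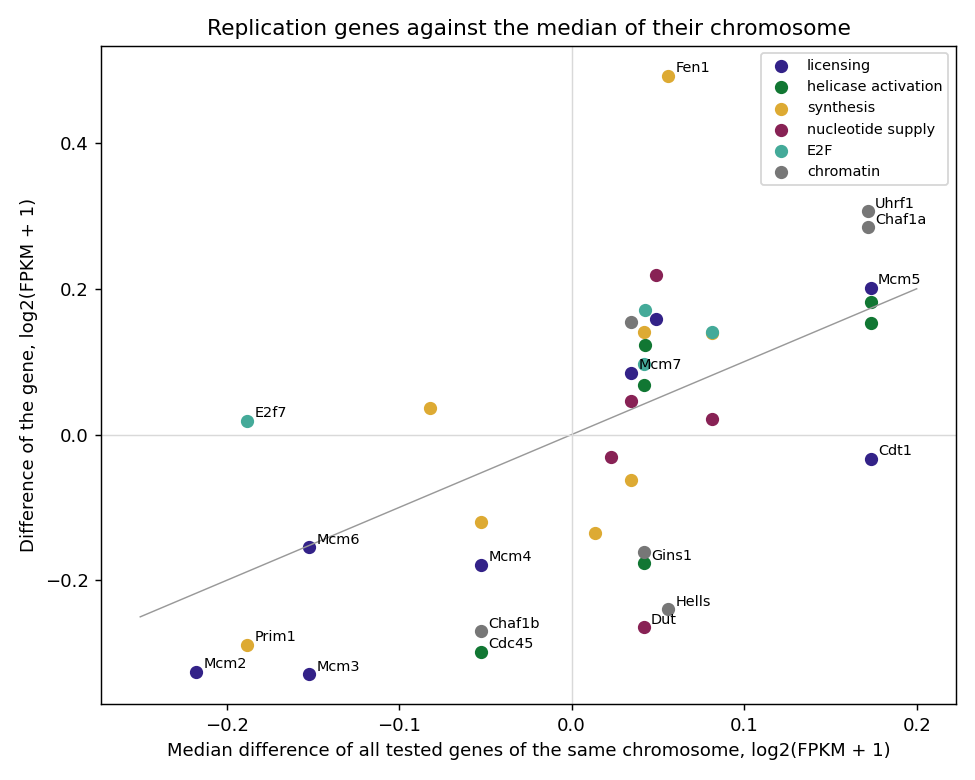
Difference of each member against the median difference of all tested genes on its chromosome, both on the log2(FPKM + 1) scale, coloured by role, with the line of equality. Mcm2, Mcm3 and Prim1 lie at chromosome medians of -0.22 to -0.15 and Uhrf1 and Mcm5 at 0.17, while Dut lies well below a median of 0.04.

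Spread within the KD group followed base composition. KD1 was the lowest of the KD libraries for 19 members (51.4%) and the highest for 14 (37.8%), and lay between the others for 4. Over all genes tested it was the lowest for 43.7% and the highest for 42.3%. For 10 members (27.0%, against 23.6% of all genes tested) KD1 deviated from the NC mean in the direction opposite to KD2 and KD3. The gap between KD1 and the mean of KD2 and KD3 ran from -0.53 for Fen1, whose longest transcript is 53.8% G and C, and -0.37 for E2f2 (56.6%), to 0.31 for Dscc1 (40.6%) and 0.37 for Hells (37.7%). Across the 37 members this gap had a Spearman rho of -0.83 with GC content, and -0.66 across the genes tested that had a GC value, which share the same libraries. The KD minus NC difference itself had a rho of 0.39 with GC content over the members. With a GC and length trend removed from every library 7 members were called higher (Mcm5, Gins3, Clspn, Pcna, Chaf1a, Uhrf1 and Slbp) and 7 lower (the called falls without Mcm4, plus Hells), at a background of 19.4% and 18%.

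**Figure D5:**
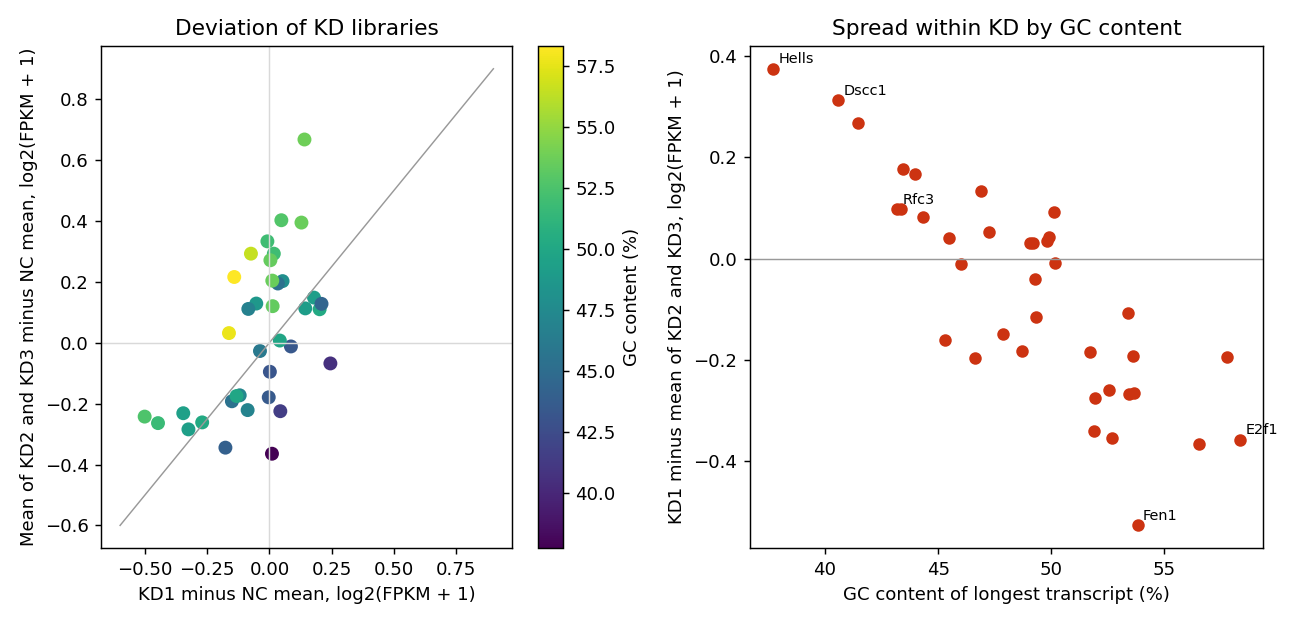
Left, deviation of KD1 from the NC mean against that of the mean of KD2 and KD3 for the 37 members on the log2(FPKM + 1) scale, coloured by GC content, with the line of equality. Right, KD1 minus the mean of KD2 and KD3 against GC content of the longest transcript, falling from 0.37 for Hells at 37.7% to -0.36 for E2f1 at 58.3%.

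Replication genes outside the 37 gave a similar mixture. Of 79 such genes, all tested, 5 rose and 8 fell (16.5%, background 24.5%), with a median difference of 0.07. The largest change was in Cdc7, the kinase that fires licensed origins, which had 15.2, 14.8 and 13.2 FPKM in NC and 23.5, 21.2 and 21.2 FPKM in KD. All 3 KD libraries were above all NC libraries, and the rise was 0.58 (SE 0.08, limma adjusted p = 0.003). Orc2, a subunit of the origin recognition complex, fell from 16.4 ± 0.62 to 11.4 ± 1.22 FPKM (-0.48, adjusted p = 0.00751), while Orc1, Orc3, Orc4, Orc5 and Orc6 did not pass (-0.14 to 0.12). Pole4, an accessory subunit of polymerase epsilon, fell from 38.6 ± 2.15 to 27.4 ± 1.61 FPKM (-0.48, adjusted p = 0.00425). Ssrp1, a subunit of the histone chaperone FACT, fell from 92.1 ± 2.97 to 68.4 ± 6.41 FPKM (-0.43, adjusted p = 0.0105). The histone chaperone gene Asf1b rose from 33.8 ± 1.005 to 44.2 ± 2.85 FPKM (0.38, adjusted p = 0.00764), the pocket protein gene Rbl2 rose by 0.32 (adjusted p = 0.0312) and the replisome scaffold gene Wdhd1 fell by 0.31 (adjusted p = 0.0257).

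Cdc7, Orc2, Pole4 and Asf1b kept their calls under all 22 alternatives, leaving out each library and removing chromosome medians included. None of the 37 members did, but these genes were picked from their list for large called differences. The share of all genes that kept a call throughout was not worked out. Ssrp1 lost its call in 1 of them, without NC1 (adjusted p = 0.0528), and Prim2 in 3 of the 21 that tested it. For Rbl2 and Wdhd1 15 and 14 of 22 kept the call, and leaving out NC1, NC2, NC3 or KD2 ended it for both.

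Genes of mitosis were set beside these as the next stage of the cycle. Of 26 mitosis genes 7 rose and 0 fell by limma, at the background of 10.9% higher and 13.6% lower, and 11 had an unadjusted p under 0.05, beside 4762 of the 12299 genes tested, with a median difference of 0.17 against 0.04 for the replication members. All 3 KD values lay above all 3 NC values for 14 of the 26 (53.8%) and below them for 0, against 21.3% and 22.9% of all genes tested. Mki67, a marker of cycling cells, had a difference of 0.42 (adjusted p = 0.00754) and was called under all 22 alternatives. The cyclin gene Ccnb1 did not pass with all 6 libraries (-0.06, adjusted p = 0.718) and was lower without KD1 (adjusted p = 0.00906). Whether mitosis and replication genes differed in their change was not tested.

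Annotation limits some members. In GENCODE M21, where all 37 members had the deposited coordinates, exons of 12 members overlapped exons of another gene. The overlap covered 78.8% of the exon bases of Fen1 (with Gm10143), 67.3% of Gins2 (with Gse1) and 52.5% of Chaf1a (with Ubxn6), each time on the opposite strand. The sources used here do not say whether counting used strand, so reads of these 3 genes and their partners cannot be told apart, and their part in the values was not tested.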

How the data were processed

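RNA was sequenced as paired-end reads in 3 NC and 3 KD libraries and aligned with HISAT2 2.0.5 to mm10, per the submitters' processing notes and the labels' protocols. The authors deposited FPKM values with gene lengths in bases, and the sources used here name no counting tool or strand setting. FPKM times length was a whole multiple of 1 step per library for 100% of values (tolerance 0.01), so reads were recovered, 15907164 to 18312888 per library. The library size behind the FPKM was 0.987 to 0.996 times the recovered reads in NC and 1.01 to 1.023 times in KD. Median-of-ratios factors of the FPKM were 1.00372 in all 6 libraries. The deposited values were thus already level on that measure, and scaling by it could not change a call. Differences are from limma 3.58.1 (R 4.3.3) on log2(FPKM + 1), a linear model of group with trended empirical Bayes moderation and Benjamini-Hochberg adjustment over the 12299 genes averaging 1 FPKM or more; changes of low genes are understated on that scale. The scripts were first tested on simulated data. GC content came from the longest GENCODE M21 transcript (99.9% of tested genes). Named were all 37 members, Calu, up to 8 called other replication genes with non-overlapping groups and the largest differences, partner subunits, and Mki67, Top2a and Ccnb1. Top2a had a difference of 0.22 (adjusted p = 0.131). Members and lists were chosen with earlier results of these data known. Alternatives were other pseudocounts (0.1, 5), filters and scalings, moderation without trend or robust, array weights (gene-by-gene method, since the default did not converge), a replicate block, protein-coding genes only, voom on the recovered reads, GC and length or chromosome medians removed, and each library left out; chromosome medians removed without KD1 was added after the data were seen. Summaries were made with pandas 2.3.3 in Python 3.11.15, and figures with matplotlib 3.10.9.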

Additional observations from a re-analysis of the deposited data

How the results depend on the processing

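Of the 8 called members none changed direction under any of the 22 alternatives, and each lost its call under 3 (Cdc45) to 13 (Mcm4) of them. Members called higher and lower (1 and 7) were 0 and 4 with no filter, 2 and 4 with quantile scaling, 16 and 13 with array weights, 0 higher with no trend, 3 higher with voom, 7 higher with the GC and length trend removed, 2 lower with a replicate block and 2 lower with chromosome medians removed. Array weights gave KD1 0.13 and KD2 4.63. The share of all genes called was not worked out for no filter, quantile scaling, array weights or no trend. Nor was it for leaving out a library other than KD1, so such counts are not read as particular to any list. Leaving out 1 library gave 0 to 10 higher and 0 to 11 lower, the highest without KD1, and 7 and 6 without KD1 with chromosome medians removed. Other replication genes (5 higher, 8 lower) were 3 higher with no filter or chromosome medians removed, 25 and 23 with array weights, 9 higher with voom and 21 and 13 with the GC and length trend removed, and 2 to 18 and 3 to 17 with 1 library left out. Mitosis genes (7 and 0) were 16 and 3 with array weights, 12 higher with voom and 15 higher with the GC and length trend removed, and 2 to 13 and 0 to 2 with 1 library left out. Signs changed only for genes that did not pass. With chromosome medians removed the difference was 0.013 for Mcm6, -0.0054 for Gins3, -0.049 for Rrm1, -0.0094 for Orc4, -0.073 for Orc6 and -0.048 for Gins4, and with KD1 also left out 0.0079 for Mcm6, -0.12 for Rrm1, -0.16 for Orc4, -0.043 for Orc5, -0.17 for Orc6 and -0.049 for Gins4. Array weights gave 0.038 for Cdt1, -0.013 for Rrm1 and -0.091 for Orc4, quantile scaling 0.027 for Cdt1, voom 0.0042 for Cdt1 and 0.0087 for Rrm2, and the GC and length trend removed 0.035 for Rfc3 and 0.066 for Rrm2. With 1 library left out the difference ran from -0.075 to 0.032 for Cdt1, -0.068 to 0.15 for Dscc1, -0.012 to 0.047 for Rrm1, -0.024 to 0.11 for Tyms, -0.0039 to 0.22 for E2f1, -0.0020 to 0.041 for E2f7, -0.12 to 0.12 for Orc4 and -0.014 to 0.23 for Orc5. The cause of these changes was not tested. Same-numbered NC and KD libraries had correlations of deviations of 0.08, -0.04 and 0.15, so the numbers were not taken to pair samples; with the replicate block 1 member was higher and 2 lower, and not every library correlated best with its own number. Depth limits Fen1, with 29 to 97 reads per library.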
